A study of Camponotus floridanus with 15 samples.

Results

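Whole-body RNA of late pupae of the 2 worker castes of the carpenter ant *Camponotus floridanus* was compared, with 2 libraries of the major caste set against 2 libraries of the minor caste, all genes included. These 4 late pupa libraries were chosen by their labels from 15 libraries in 8 groups, which also hold embryos, larvae of instars 1 and 4, early pupae, males (1 library) and a group labelled minor. The study was done for a reassembly of ant genomes, and poly(A) RNA was sequenced in libraries that keep the strand. The ants were kept in a plaster nest under controlled temperature and humidity and fed sugar water and Bhatkar-Whitcomb diet, with no treatment and no transgene in any group. The labels give no age in days for the pupae, no sex, no colony and no number of animals per library, so a p-value here reflects the spread among these libraries alone, and that spread may be technical. The group labelled minor carries no stage in its label. The table's own second header line calls it worker, and it is called minor worker here.

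Workers of this species come in a small form, the minor, and a large form with a big head and strong mandibles, the major. The caste of a worker is set while the larva grows, and the adult body is then built in the pupa, where the cuticle is laid down, hardened and pigmented and the larval tissues are replaced. A comparison of late pupae therefore asks which transcripts differ while the bodies of the 2 forms are being finished. In whole-body RNA, fewer cells of a type and less RNA per cell cannot be told apart. The IDs in the table are not paired with gene names in the files or in the reference table, so each gene is named by its ID and its function is not known here.

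The table lists 18979 genes in RPKM, reads per kilobase of gene scaled to a library's read total. Recovered from the steps of the low values, the late pupa libraries held between 3.21 and 5.52 M reads on genes with a recovered length, with late pupa minor replicate 2 the shallowest and late pupa minor replicate 1 the deepest. On a gene of 1 kb, a count of 0 allows up to 3 reads, which is between 0.112 and 0.173 RPKM in these 4 libraries. The 50 most abundant genes took between 53.2% and 58.3% of the RPKM total in each of them.

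The replicates of the minor caste lay further apart than those of the major caste. On RPKM + 1, 143 of 10807 tested genes were at least 4 times apart between the 2 late pupa minor libraries and 50 between the 2 late pupa major libraries. Between castes the 4 pairs gave 69 genes (major replicate 1 and minor replicate 2), 148 (major replicate 2 and minor replicate 2), 223 (major replicate 2 and minor replicate 1) and 234 (major replicate 1 and minor replicate 1). Major replicate 1 and minor replicate 2, libraries of different castes, thus had fewer such genes than the 2 minor libraries. The log2 values of that mixed pair correlated at r = 0.944 across genes, those of the minor pair at 0.927 and those of the major pair at 0.964, and genes do not count as replicates in such an r. The order of the 6 pairs at 4 times changed in 1 place when each library was rescaled by its median ratio: the minor pair had 165 genes and major replicate 2 with minor replicate 2 had 131. At a cut of 2 times the mixed pair had 980 genes and the minor pair 1170, but 1148 and 1127 on rescaled libraries. The most genes at that cut were in major replicate 2 with minor replicate 2, 2146 and 2162 after rescaling.

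**Figure D1:**
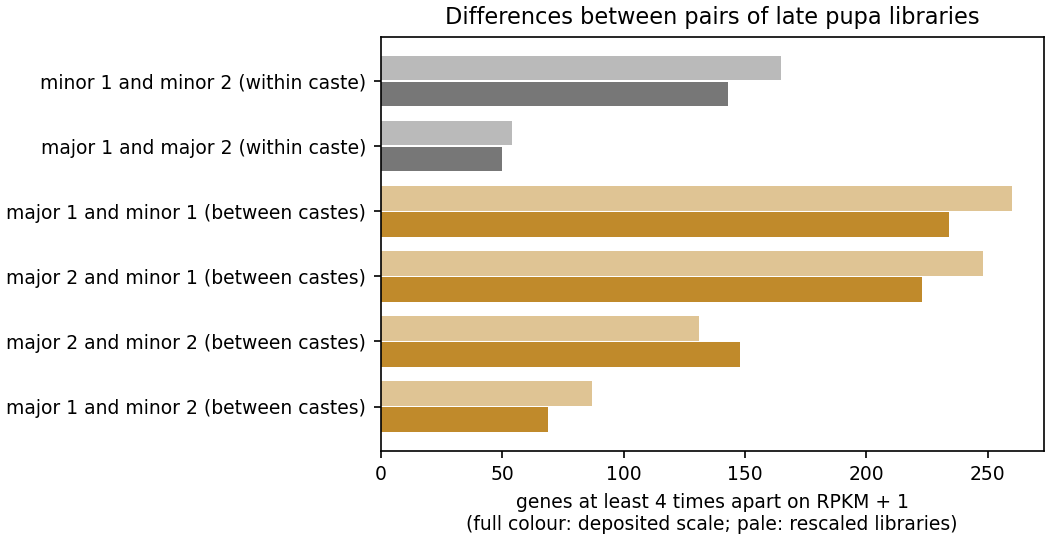
Number of genes at least 4 times apart on RPKM + 1 (horizontal axis) for the 6 pairs of late pupa libraries, grey within a caste and ochre between castes, full colour on the deposited scale and pale after rescaling. Minor replicate 1 stands in the 2 longest bars, with 234 and 223 genes on the deposited scale, and major replicate 1 with minor replicate 2 has 69.

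Over all 10807 tested genes the median log2 difference, major minus minor, was 0.06, and the SD of the difference over genes was 0.59. This median follows the library scaling and was 0 after rescaling, so it does not show how close the castes were. In limma, 994 genes were at an unadjusted p under 0.05, and 2431 of 10619 genes were on rescaled libraries. A mean difference of at least 1 log2 unit was found for 604 genes with higher levels in major and for 244 genes with higher levels in minor, and on rescaled libraries for 555 and 428 genes, so that the excess towards major was smaller there. The median SE of a difference was 0.43 on the log2 scale, so a difference of 1 log2 unit was not detectable for most genes with 2 libraries a side.

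Of the 10807 genes, 46 (0.426%) differed between castes at an adjusted p under 0.05 (limma on log2(RPKM + 1), all 15 libraries in the fit). Of these, 30 (0.278%) were higher in major and 16 (0.148%) were higher in minor. After rescaling, 93 genes (0.876% of 10619) were higher in major and 63 (0.593%) higher in minor, and 23 and 16 genes were called in the same direction on both scales. The 46 calls used the spread of all 15 libraries: limma on the 4 late pupa libraries alone called 0 of 10695 genes, with a smallest adjusted p of 0.3 and 1506 genes at an unadjusted p under 0.05. The numbers also rested on single libraries, and where 1 library is left out the other of its caste is assumed to vary like the other groups. Without late pupa minor replicate 2, 117 genes were higher in major and 94 in minor, and without late pupa minor replicate 1 the numbers were 11 and 10. Without late pupa major replicate 1 they were 34 and 13, and without late pupa major replicate 2 they were 13 and 3. Of the 30 genes higher in major 8 were called in each of these 4 fits on the deposited scale, and of the 16 higher in minor 2 were.

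The 2 sets of called genes differed in size of change and in level. Among the 30 genes higher in major, the log2 difference ran from 1.17 to 4.05 with a median of 2.58. Among the 16 genes higher in minor it ran from 1.1 to 6.44 in size with a median of 1.56. The major set had median levels of 26.8 and 19.5 RPKM in the 2 major libraries, against 0.946 and 4.29 RPKM in minor replicates 1 and 2. The minor set had median levels of 9.03 and 5 RPKM in minor replicates 1 and 2, against 1.3 and 0.692 RPKM in the major libraries. Together the major set took 0.709% and 0.572% of the RPKM total in the major libraries. The minor set took 3.63% of the total in minor replicate 1 and 0.281% in replicate 2, a difference between replicates that comes mostly from the 2 genes described first among those higher in minor.

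In all 46 called genes both libraries of one caste lay above both of the other. Over all tested genes the same order, with any gap, held for 2985 (27.6%) with major above minor and for 2182 (20.2%) with minor above major. With a gap of at least 2 times on RPKM + 1, 133 genes (1.23%) had major above minor and 45 (0.416%) had minor above major, and 28 and 13 of the called genes were among them. The excess towards major was smaller on rescaled libraries. There the orders with any gap were near even, at 2760 (26%) and 2696 (25.4%), while those with a gap of at least 2 times numbered 119 and 86. An exact permutation test of 2 libraries against 2 cannot go below p = 0.33, so these orders carry no test of their own. Minor replicate 2 was above minor replicate 1 in 26 of the 30 genes higher in major, against 26.3% of all tested genes. It was below minor replicate 1 in 13 of the 16 genes higher in minor, a share near the 72.3% of all tested genes. Major replicate 1 was the higher major library in 13 of 30 and in 9 of 16, against 34.8% of all tested genes.

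**Figure D2:**
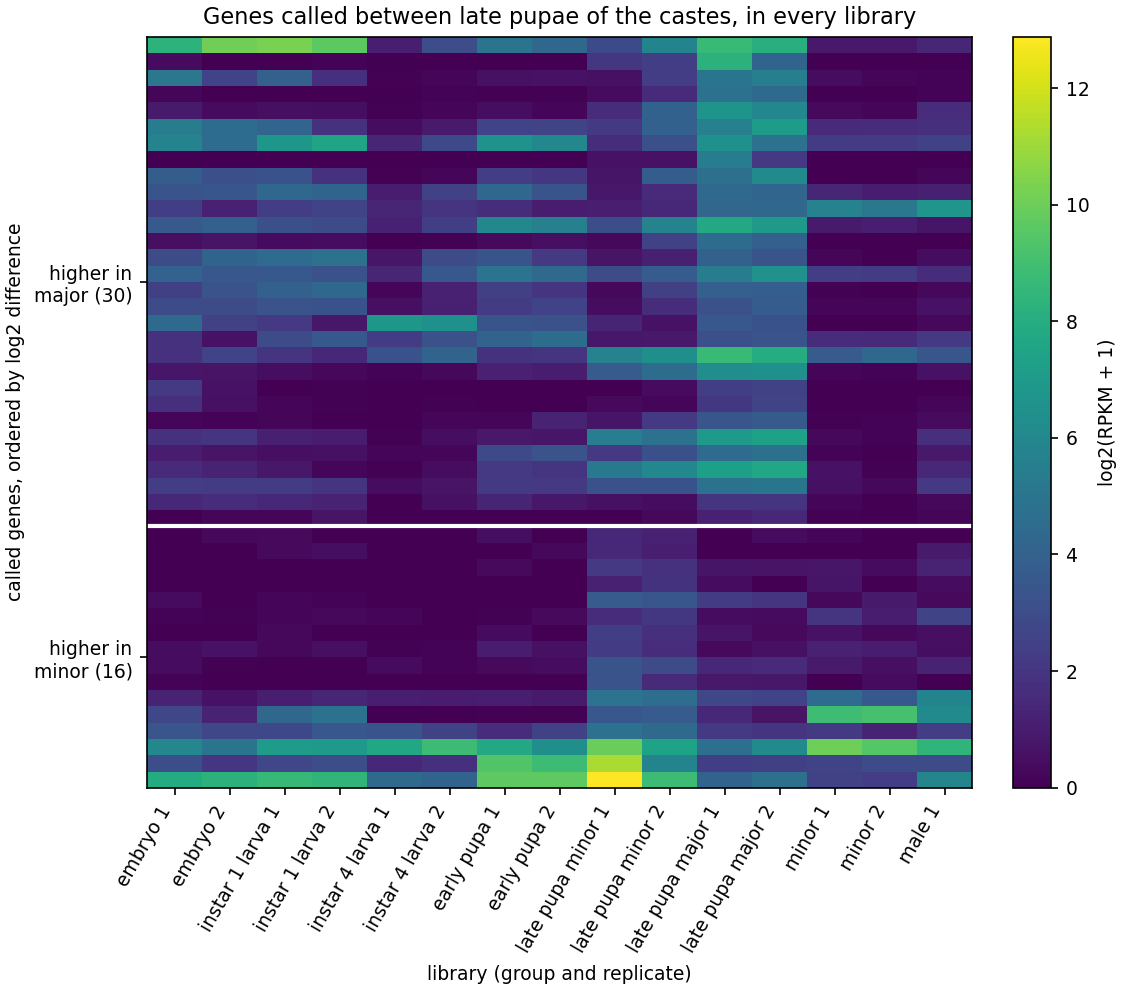
Level, as log2(RPKM + 1), of the 46 genes called between castes (rows, ordered by log2 difference) in each of the 15 libraries (columns). Of the 30 genes above the white line 23 have their highest group mean in late pupa major, and in 10 of the 16 below it both late pupa minor libraries exceed every library outside late pupa.

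The genes named here are at most 2 per direction for the largest gap, the highest level and the closest replicates, plus genes found in 1 caste only. Among genes higher in major, CFLOG000469.2 had the largest gap. It stood at 28 and 20.6 RPKM in the major libraries and at 0.301 and 2.04 RPKM in the minor libraries. The lower major library was 7.1 times the higher minor library on RPKM + 1, and the log2 difference was 3.65 ± 0.32 (SE; limma, adjusted p = 2.8e-06). It was at most 0.148 RPKM in each of the 11 libraries outside late pupa, at or near the limit that a count of 0 allows. The SE pools the spread of all 15 libraries, and CFLOG000469.2 hardly varied in those 11. In limma on the 4 late pupa libraries alone the adjusted p of this gene was 0.3. Over 14 other settings that keep the remaining groups in the fit, the same settings as for the genes that follow, its adjusted p ranged from 4.9e-11 to 0.018.

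CFLOG010111.1 followed, at 18 and 18.5 RPKM in major against 1.11 and 1.76 RPKM in minor. The major libraries almost coincided, and the log2 difference was 2.99 ± 0.46 (SE; limma, adjusted p = 0.0033, and 0.00011 to 0.044 over 14 other settings). Unlike most of the 30, CFLOG010111.1 was higher in minor worker and male than in late pupa. It stood at 2.19 and 1.03 RPKM in early pupa, at 52.2 and 33.3 RPKM in minor worker and at 104.1 RPKM in the 1 male library. Its level in late pupa minor was thus near that of early pupa, and its level in late pupa major lay between early pupa and minor worker.

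The 2 most abundant genes higher in major were CFLOG007208.2 and CFLOG002494.2. CFLOG007208.2 was at 417 and 267.9 RPKM in major and at 6.33 and 55.2 RPKM in minor. The groups did not overlap, but the minor libraries were 7.67 times apart on RPKM + 1, and the log2 difference of 4.05 ± 0.76 (SE; limma, adjusted p = 0.014) was 2.58 without minor replicate 1 (adjusted p = 0.22) and 5.52 without minor replicate 2. CFLOG007208.2 was called in 6 of 14 other settings, with adjusted p from 3.1e-06 to 0.26. Its levels in early pupa were 29.8 and 19.3 RPKM and in instar 1 larva 1229 and 787.6 RPKM.

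CFLOG002494.2 was at 408 and 251.2 RPKM in major and at 51.8 and 83.3 RPKM in minor. Outside late pupa it reached 19.2 RPKM at most, in minor worker replicate 2. Both castes were thus high for this gene against every other group, with major the higher (log2 difference 2.27 ± 0.48, SE; limma, adjusted p = 0.031). The call of CFLOG002494.2 held in 4 of 14 other settings, with adjusted p from 0.012 to 0.35. On the deposited scale it was lost without either major library or minor replicate 1 (0.26, 0.096 and 0.35) and after rescaling (0.056).

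The closest replicates among genes higher in major were those of CFLOG006122.2 and CFLOG000080.2. CFLOG000080.2 was at 27.9 and 31.3 RPKM in major and at 8.33 and 8.52 RPKM in minor, with no replicate pair more than 1.12 times apart. Its log2 difference was 1.7 ± 0.36 (SE; limma, adjusted p = 0.036) and lay between 1.41 and 1.82 in 14 other settings. CFLOG006122.2 was low, at 2.88 and 2.92 RPKM in major (41 and 35 reads) and at 0.485 and 0.333 RPKM in minor (9 and 4 reads). Its log2 difference was 1.47 ± 0.29 (SE; limma, adjusted p = 0.023). Of 14 other settings CFLOG000080.2 was called in 9, with adjusted p from 0.0021 to 0.34, and CFLOG006122.2 in 8, with adjusted p from 0.011 to 0.26. In the 4 fits that leave out 1 library, CFLOG000080.2 was called in 0 on the deposited scale and in 4 on rescaled libraries, and CFLOG006122.2 in 1 and in 3.

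Among genes higher in minor, CFLOG012455.2 and CFLOG010139.2 had both the largest gap and the highest level. CFLOG012455.2 was at 7543 and 460.4 RPKM in minor and at 16.1 and 26 RPKM in major, and CFLOG010139.2 at 2396 and 55.8 RPKM in minor and at 4.18 and 4.43 RPKM in major. In both genes minor replicate 1 was far above minor replicate 2, by 16.3 and 42.2 times on RPKM + 1, while the major libraries were close together. The log2 difference of CFLOG012455.2 was -6.44 ± 0.76 and that of CFLOG010139.2 was -6.12 ± 0.95 (SE; limma, adjusted p = 0.00018 and 0.0035). Without minor replicate 1 the differences were -4.43 and -3.42, and without minor replicate 2 they were -8.46 and -8.82. A fit without 1 minor library leaves out the spread between the 2, and such fits are among the 14 other settings. Early pupa stood at 811.6 and 822.9 RPKM for CFLOG012455.2 and at 667.3 and 460.5 RPKM for CFLOG010139.2. Minor worker stood at 4.68 and 3.98 RPKM for the first and at 5.22 and 6.6 RPKM for the second. Late pupa major was near minor worker for CFLOG010139.2 and above it for CFLOG012455.2, and for both genes it was far below early pupa. CFLOG012455.2 was called in 14 of 14 other settings, and CFLOG010139.2 in 11, with adjusted p up to 0.15.

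CFLOG004400.2 and XLOC_011565 had the closest replicates among genes higher in minor. CFLOG004400.2 was at 28.8 and 23.6 RPKM in minor and at 5.62 and 5.1 RPKM in major (log2 difference -2.09 ± 0.42, SE; limma, adjusted p = 0.022). It was near 1 RPKM in early pupa (1.1 and 0.938 RPKM), at 22 and 10.7 RPKM in minor worker and at 55.7 RPKM in male. For CFLOG004400.2 late pupa minor thus stood above early pupa and above minor worker, and late pupa major stood between early pupa and minor worker. XLOC_011565 was at 12 and 9.81 RPKM in minor and at 3.71 and 2.97 RPKM in major (log2 difference -1.45 ± 0.29, SE; limma, adjusted p = 0.023). XLOC_011565 was under 1 RPKM in every library outside late pupa, so it entered the test only through its late pupa levels. Its small spread in the other libraries enters the SE, and in limma on the 4 late pupa libraries alone its adjusted p was 0.3. In 14 other settings CFLOG004400.2 was called in 9, with adjusted p from 0.0026 to 0.22, and XLOC_011565 in 7, with adjusted p from 0.0067 to 0.47. On the deposited scale both lost the call without minor replicate 1 and without either major library. On rescaled libraries CFLOG004400.2 kept it in these 3 fits and XLOC_011565 kept it in 1, without major replicate 1.

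No gene (0) was at or above 1 RPKM in both major libraries and at or below 0.1 RPKM in both minor libraries. In the other direction 1 gene was, CFLOG008965.2, at 1.71 and 1.13 RPKM in minor, which are 7 and 3 reads, and 0 reads in both major libraries. The value of minor replicate 2 is itself the 3 reads that a count of 0 allows, so no fold is given. These numbers depend on the limits chosen, since 0.1 RPKM is under 3 reads on a gene of 1 kb. With up to 0.5 RPKM allowed in the other caste they were 20 in major and 18 in minor, and on rescaled libraries 1 and 3.

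**Figure D3:**
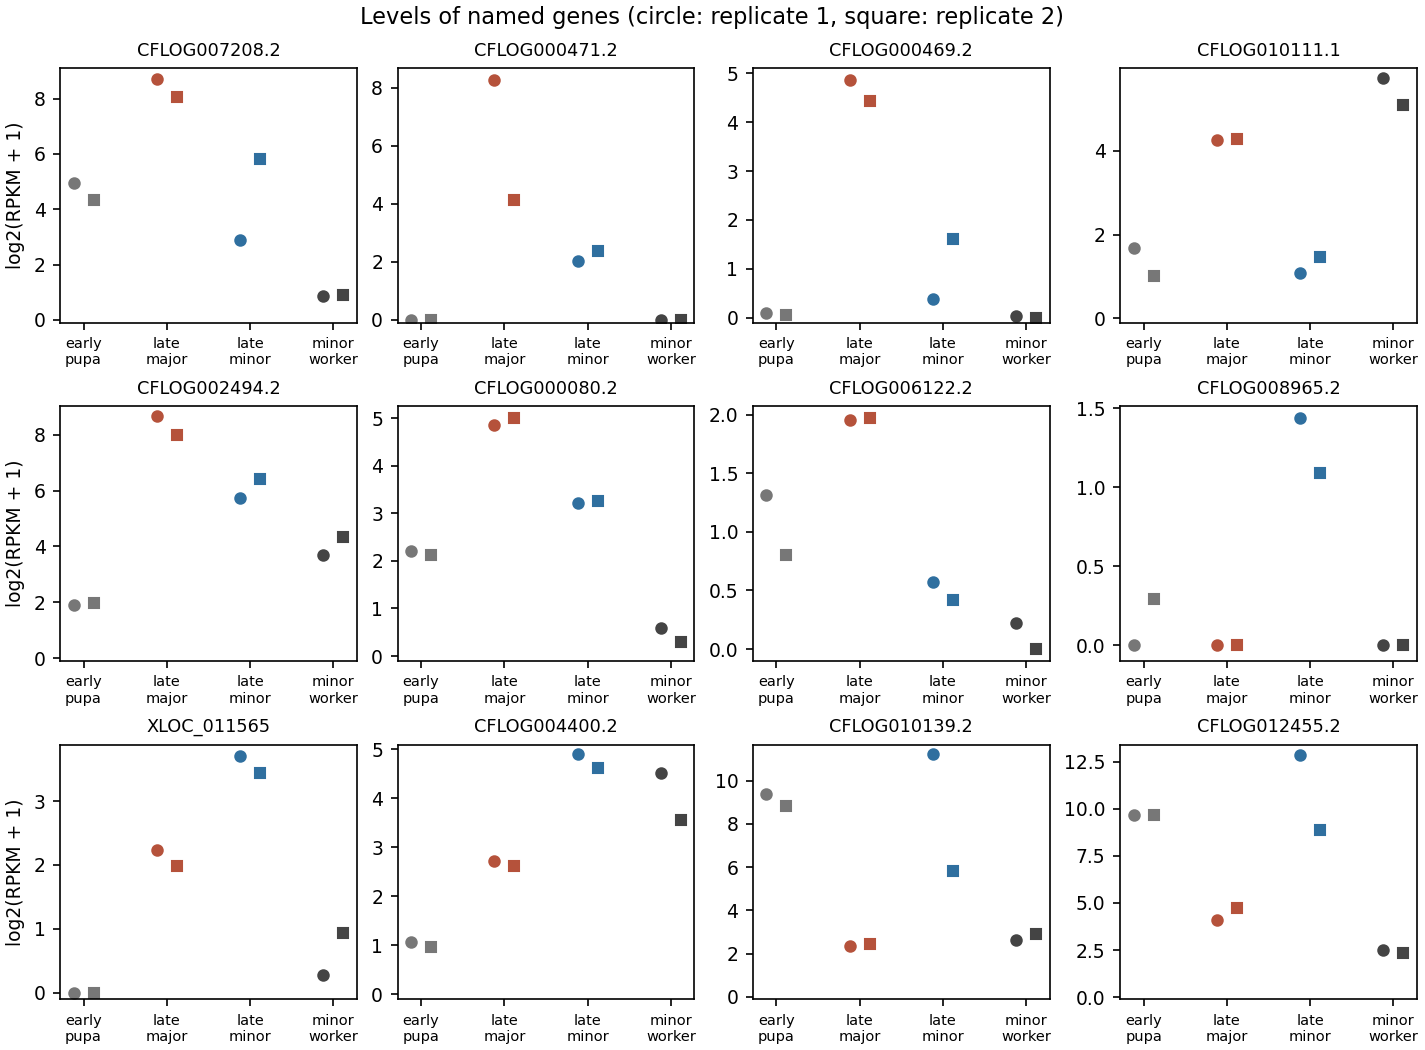
Level, as log2(RPKM + 1), of the 12 named genes in early pupa, late pupa major, late pupa minor and minor worker, with circles for replicate 1 and squares for replicate 2. The castes do not overlap in any panel, which follows from how the genes were chosen. The minor libraries of CFLOG007208.2, CFLOG010139.2 and CFLOG012455.2 lie far apart, as do the major libraries of CFLOG000471.2.

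Where else the called genes were expressed was described over all 8 groups. Of the 30 genes higher in major, 23 had their highest group mean in late pupa major, 4 in instar 1 larva, and 1 each in instar 4 larva, early pupa and male. Over all tested genes late pupa major was the highest group for 3.6%. Of the 16 genes higher in minor, 12 were highest in late pupa minor, 2 in minor worker and 2 in male, and over all tested genes late pupa minor was the highest group for 2.36%. These shares are no support for the calls, since a gene raised in one group is both called and highest there. In 20 of the 30 both major libraries were above every library outside late pupa, and in 10 of the 16 both minor libraries were, against 2.53% and 1.64% of all tested genes for the major and the minor libraries. These orders too are partly fixed by the call, and they were counted on the deposited scale only.

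Levels outside late pupa were also counted, on the deposited scale only. At a group mean of at least 1 RPKM, 21 of the 30 genes higher in major were found in embryo, 18 in instar 1 larva, 19 in early pupa and 8 in minor worker. The numbers for the 16 genes higher in minor were 5 in embryo, 6 in instar 1 larva, 5 in early pupa and 8 in minor worker. Of all tested genes 89.2% reached this level in embryo, 89.6% in instar 1 larva, 80.1% in early pupa and 73.8% in minor worker, so both sets lay below these shares in all 4 groups. A difference between the 2 sets was not tested. Under 1 RPKM in each of the 11 libraries outside late pupa were 5 of the 30 and 6 of the 16, among 58 such genes (0.537%) of all tested. Genes limited to late pupa entered the test only through their late pupa levels. Their small spread in the other libraries also enters the SE of the caste difference.

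The called genes were then followed from early pupa to minor worker, 2 libraries each, whose means do not enter the caste difference. Both comparisons come from the same limma fit, so these libraries do enter the spread and the filter behind the caste calls. Early pupa has no caste in its label and minor worker is of the minor caste with no stage in its label, so stage and caste cannot be told apart in this comparison. Of all 10807 genes, 1414 (13.1%) were higher in minor worker than in early pupa and 1635 (15.1%) lower. Of the 30 genes higher in late pupa major, 15 were lower in minor worker, 2 were higher and 13 did not pass, with a median log2 change of -0.99 beside -0.17 over all genes. Of the 16 genes higher in late pupa minor, 4 were higher in minor worker, 2 were lower and 10 did not pass, with a median of 0.32. The 2 that were lower are CFLOG012455.2 and CFLOG010139.2, with log2 changes of -7.26 ± 0.76 and -6.34 ± 0.95 from early pupa to minor worker (SE; limma, adjusted p = 2.7e-07 and 3.2e-05). The 2 genes higher in late pupa major that were also higher in minor worker are CFLOG010111.1 and CFLOG002494.2 (log2 change 4.07 ± 0.46 and 2.07 ± 0.48, SE; limma, adjusted p = 7.6e-07 and 0.0023). Both pairs are named in full since they are few, and all 4 had also met the rule for named genes.

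**Figure D4:**
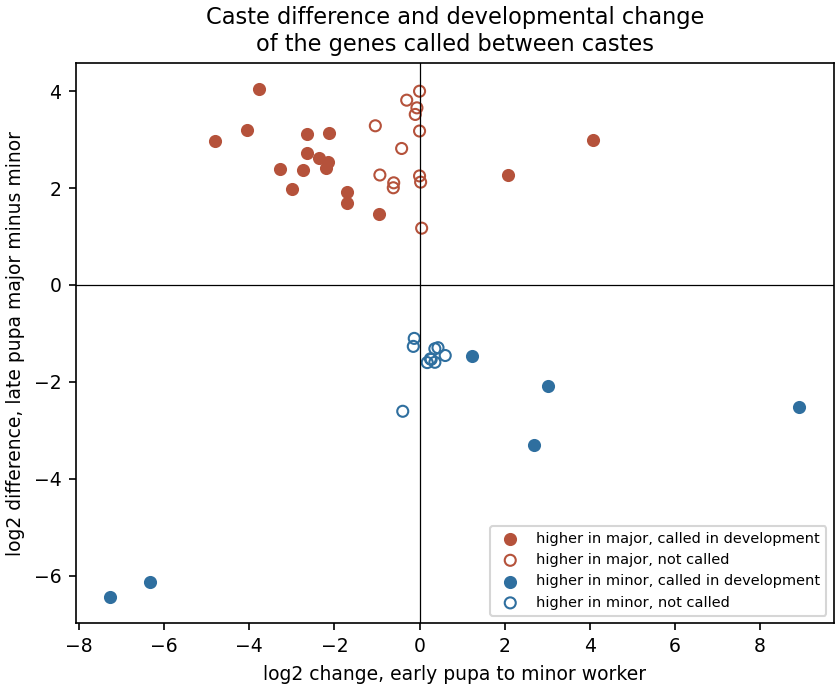
Log2 change from early pupa to minor worker (horizontal axis) against log2 difference between late pupa major and late pupa minor (vertical axis) for the 46 called genes, filled where that change passed the test. Of the 30 genes higher in major (red), 15 filled points lie to the left of 0 and 2 to the right, and of the 16 higher in minor (blue) 4 lie to the right and 2 to the left.

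Wider sets of genes were counted in the same way. They rest on the same 4 late pupa libraries and hold most of the called genes, so they are no independent check. Among the 133 genes with a gap of at least 2 times and major above minor, 75 (56.4%) were lower in minor worker than in early pupa and 9 (6.77%) were higher. Among the 45 with minor above major, 3 (6.67%) were lower and 19 (42.2%) were higher. Of the 30 and the 16 called genes, 50% and 12.5% were lower and 6.67% and 25% were higher. On rescaled libraries, where 2542 of 10619 genes (23.9%) were higher in minor worker and 2237 (21.1%) lower, 49 of the 93 genes called higher in major were lower in minor worker and 8 higher. Of the 63 genes called higher in minor on that scale, 5 were lower and 30 higher. The numbers for the 30 and the 16 genes moved little with the libraries of this second comparison: without any of its 4 libraries, 13 or 14 of the 30 were lower in minor worker and 3 or 4 of the 16 were higher.

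The levels in late pupa were also set beside those in early pupa and minor worker library by library. In 25 of the 30 genes both major libraries were above both early pupa libraries (17.6% of all tested genes), and in 24 they were above early pupa and minor worker alike (6.05%). In 8 of the 30 both minor libraries were below both early pupa libraries, against 47.5% of all tested genes. Among the 16 genes higher in minor, both minor libraries were above early pupa in 13 (18.5% of all tested genes) and above early pupa and minor worker alike in 11 (6.51%). Since the genes were called for a high level in that caste, such an order is partly fixed by the call and is given as a description. These orders were counted on the deposited scale only. The factors used for rescaling were 1.021 and 0.868 in early pupa and 0.58 to 0.786 in late pupa, so the shares may change with the scaling.

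The genes that differed between early pupa and minor worker were also followed in the 4 late pupa libraries. For each gene the mean of the 4 libraries was subtracted from its log2(RPKM + 1), and the median was taken over genes. The 1635 genes lower in minor worker than in early pupa stood at 0.14 and 0.3 in major replicates 1 and 2 and at -0.09 and -0.31 in minor replicates 1 and 2. Both major libraries were thus above both minor libraries for these genes, while the medians over all tested genes were -0.03, 0.1, 0.08 and -0.16 in the same order. After rescaling, which sets the median over all tested genes to 0, the values were 0.2 and 0.21 in major and -0.19 and -0.17 in minor. The castes stayed apart, and the replicates of each caste almost coincided.

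The 1414 genes higher in minor worker than in early pupa did not separate the castes in this way on the deposited scale. They stood at -0.13 and -0.02 in major and at 0.28 and -0.14 in minor, so that the groups overlapped. After rescaling they were at -0.1 and -0.13 in major and at 0.19 and 0.02 in minor, with both minor libraries above both major libraries. Minor replicate 1 stood highest for these genes on both scales.

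Counted by gene, 876 of the 1635 genes that were lower in minor worker (53.6%) had both major libraries above both minor libraries, and 121 (7.4%) had the reverse, beside 27.6% and 20.2% of all tested genes. Of the 1414 genes that were higher, 214 (15.1%) had major above minor and 397 (28.1%) had minor above major. For the rescaled libraries, the genes called on the deposited scale were kept where they passed the filter. The shares were then 50.3% and 9.03% of 1628 genes that were lower. They were 12.7% and 38.7% of 1407 genes that were higher, beside 26% and 25.4% of all 10619 tested. The median caste difference of the falling genes was 0.45 (0.42 after rescaling) and that of the rising genes -0.13 (-0.21). As the age of the pupae is not labelled, caste and a possible age difference between the 2 sets of late pupae cannot be told apart, and the genes compared here carry the caste of minor worker as well as its stage.

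**Figure D5:**
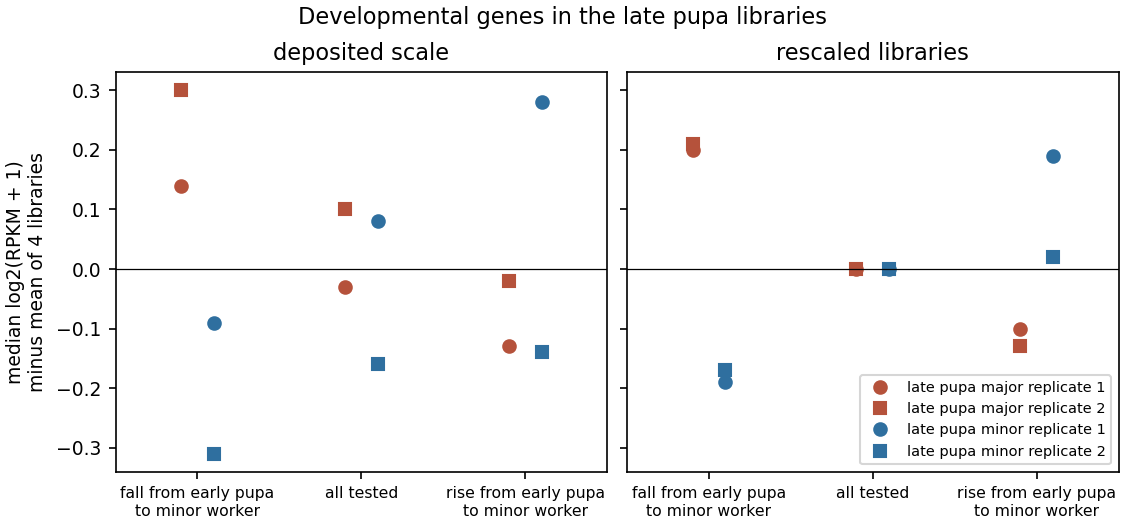
Median over genes of log2(RPKM + 1) minus the mean of the 4 late pupa libraries (vertical axis), for genes that fell, all tested genes and genes that rose from early pupa to minor worker, on the deposited scale (left) and after rescaling (right). For genes that fell, the 2 major libraries (red) lie above the 2 minor libraries (blue) in both panels, at 0.2 and 0.21 against -0.19 and -0.17 after rescaling.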

How the data were processed

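The deposited table holds RPKM computed by the authors, per its file name and values, for 18979 genes (18620 with the prefix CFLOG, 359 with XLOC). STAR 2.5.0b and DESeq2 are named without a role in the submitters' processing notes. The sources used here name no build, annotation or counting step. Columns were matched to samples by the 2 header lines, and 0 were left without a sample. None (0) of the IDs matched the 14020 genes of the RefSeq table, so no sequence is printed and no gene list by function was used.

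Library divisors (17.29 to 26.74 M reads in late pupae) and the lengths of 13298 genes were recovered from the steps of the values, whole within 0.03 reads, and served for read numbers and floors of 3 reads per library only. Floors and read numbers cover counting error only. In 92% of CFLOG genes the recovered length was a multiple of 3, so these are mostly coding lengths. Replicates were compared for repeated deposits by a chi-square per gene of at least 20 reads, and the median with 1 degree of freedom was 3.49 in late pupa major and 4.39 in late pupa minor, so no pair agreed within sampling noise.

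log2(RPKM + 1) was fitted in limma 3.58.1 (R 4.3.3) over the 15 libraries, with group as the only factor and a mean-variance trend, for genes of at least 1 RPKM in at least 2 libraries, and two-sided p adjusted by Benjamini-Hochberg at 0.05. Fold changes on this scale understate the change of low genes. For the rescaled values, a library was divided by the median, over 9990 genes above 0 in all libraries, of its ratios to the geometric mean. The limma and length steps were tested on simulated data. For limma each gene was drawn with the same spread in every group, so a spread that differs between groups was not covered. Alternatives were the scaling, the pseudocount, the filter, the libraries in the fit, a replicate block and each library left out. Genes were named by rule: at most 2 per direction for the largest gap among genes called on both scales, for the highest level, for the closest replicates with a gap of at least 2 times, and for presence in 1 caste. CFLOG000471.2 was named in an earlier account. The comparison, the rule and the lists were chosen with earlier results of these data known. Fitted values of a gene at 0 reads depend on the pseudocount.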

Additional observations from a re-analysis of the deposited data

How the results depend on the processing

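The counts of called genes moved with the setting, and the cause was not tested. The genes called higher in major and in minor (30 and 16) numbered 93 and 63 with rescaled libraries, 6 and 6 with a pseudocount of 0.1, 9 and 13 with no filter, and 0 and 0 in limma on the 4 libraries alone (1506 at an unadjusted p under 0.05). Leaving out each library in turn gave 11 to 117 and 3 to 94, and with rescaled libraries, an alternative chosen after seeing the data, 12 to 191 and 14 to 182 (47 and 33 when replicate 1 of the minor caste was left out, 45 and 53 when that of the major caste was). With the replicate block the counts were 40 and 26, and with rescaled libraries and the block 70 and 50. The replicate numbers do not pair the samples by the labels. The deviations of same-numbered late pupa libraries of the 2 castes correlated at -0.19, and a block with the numbers of the major caste crossed, also added after seeing the data, gave 50 and 30. The counts between early pupa and minor worker (1414 higher in minor worker, 1635 lower) were 2542 with rescaled libraries and 2480 with the block as well for the first, and 853 to 1353 and 671 to 2157 with 1 library left out (853 higher and 991 lower without early pupa replicate 2, 746 lower without early pupa replicate 1, 671 lower without minor worker replicate 2; 1762 to 2647 and 1414 to 2187 with rescaled libraries).

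Genes with a gap of at least 2 times (133 and 45) numbered 326 and 154 with a pseudocount of 0.1, 9 and 4 with a gap of 4 times, 2985 and 2182 with any gap, and 119 and 86 with rescaled libraries. With 1 library left out they were 223 to 623 and 96 to 350, as fewer libraries have to be in order. Genes found in 1 caste only (0 in major and 1 in minor) were 1 and 3 with rescaled libraries, 20 and 18 with 0.5 RPKM allowed in the other caste, and 1 to 8 and 3 to 20 with 1 library left out. At least 2 times apart were 419 genes in the major pair, 1170 in the minor pair, and 980, 1174, 1284 and 2146 between castes, the last for replicate 2 of each. On rescaled libraries the minor pair had 1127 such genes, and major replicate 1 with minor replicate 2 had 1148 in place of 980. The medians of the genes that differed between early pupa and minor worker also moved with rescaling, most in replicate 2 of each caste. Rising genes went from -0.02 to -0.13 in major replicate 2 and from -0.14 to 0.02 in minor replicate 2. Falling genes went from 0.3 to 0.21 and from -0.31 to -0.17 in these 2 libraries. Of 176 values of the 12 named genes under other settings, 112 kept their side of the threshold, 64 lost the call (12 of them in the 4-library fit), and none (0) changed direction. In the other 14 settings, CFLOG000469.2, CFLOG010111.1 and CFLOG012455.2 lost it in 0.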

Other observations

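A run of 3 nearby IDs was found among the genes higher in major: CFLOG000469.2, CFLOG000471.2 and CFLOG000474.1, the last named after its values were seen. CFLOG000471.2 stood at 306.6 and 16.5 RPKM in major and at 3.05 and 4.21 RPKM in minor, and CFLOG000474.1 at 43.2 and 3.43 RPKM in major and at 0.528 and 0.571 RPKM in minor. Major replicate 1 was thus far above major replicate 2 in these 2 genes, while CFLOG000469.2 was at 28 and 20.6 RPKM in the same libraries. The log2 difference of CFLOG000471.2 was 4 ± 0.71 (SE; limma, adjusted p = 0.011), or 1.93 without major replicate 1 and 6.06 without major replicate 2, and after rescaling its adjusted p was 0.053. Outside late pupa CFLOG000471.2 was at most 0.311 RPKM, and that small spread enters the SE. In limma on the 4 late pupa libraries alone its adjusted p was 0.33. ID numbers were compared without the ending after the point, and CFLOG000474.1 ends in 1 where CFLOG000469.2 and CFLOG000471.2 end in 2. Whether the 2 endings share one numbering is not known here. Of the 30 genes higher in major, 5 had another of the 30 within 5 ID numbers, and of the 16 higher in minor 2 had. Within 5 numbers of a gene higher in major lay 1.34% of all tested genes, and within 5 of a gene higher in minor 0.629%. The sources used here do not say whether neighbouring numbers are neighbouring genes or copies of a gene, and reads shared between copies would leave single values uncertain.

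By kind of ID, 22 of the 30 genes higher in major had an ID ending in 2 after the point, 7 an ID ending in 1, and 1 was an XLOC locus. Of the 16 genes higher in minor, 6 ended in 2, 8 ended in 1 and 2 were XLOC loci. Over all 10807 tested genes the numbers were 6458, 4022 and 327. The sources do not say what these endings stand for.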
